A study of Mus musculus with 60 samples.

Results

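The 10 genes described here are those for the enzymes that hydroxylate newly made collagen chains and for their closest partners in the endoplasmic reticulum (ER): P4ha1, P4ha2, P4ha3, P4hb, Plod1, Plod2, Plod3, P3h1, P3h2 and Serpinh1. They were taken by name from the 56980 gene identifiers of each of 2 count tables, and all 10 were found in both. Of these, 8 are hydroxylases that use ascorbate (vitamin C) as a cofactor. P4hb is the partner subunit of the prolyl 4-hydroxylases and Serpinh1 is a collagen chaperone, so neither is itself an ascorbate-dependent enzyme. The libraries measure RNA, and neither enzyme activity nor collagen hydroxylation was measured in them.

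The series holds 60 RNA sequencing libraries of cultured mouse fibroblasts on a C57BL6J|FVB background, in 20 groups of 3 libraries, kept at 3% oxygen. The first table holds 36 libraries of cells with a doxycycline-inducible reprogramming cassette (Oct4, Klf4, Sox2 and c-Myc) in the Col1a1 locus. For the Ercc1 mutant cells the authors give a tetO cassette with the M2-rtTA activator at ROSA26. For the wildtype cells with the Oct4 reporter they cite another source of the cassette and name no activator. The cassette may therefore differ between the lines. The line called D/KO (4FJ_ERCC1_(d/-)) came from tail tip of a male mouse of 8 weeks and has a single truncated allele of the DNA repair gene Ercc1. The line called WT (4FJ_(+/-)_OCT4-GFP) came from tail tip of a female of 22 weeks and has intact Ercc1 with an Oct4-GFP reporter. Doxycycline (2 µg/ml) was given for 0, 2 or 4 days, alone or with VC, the combination of ascorbic acid (50 µg/ml) and the GSK3 inhibitor CHIR99021 (3 µM), so that the effects of ascorbate and of CHIR99021 cannot be told apart. The second table holds 24 libraries for which the labels give no doxycycline. Its D/KO cells (ERCC1_(d/-), tail tip, female, 4 weeks) were untreated or were given Repsox (0.1 µM), Vactosertib (0.1 µM), DMH-1 (1 µM) or A83-01 (1 µM) for 3 days, all 4 being inhibitors of type I receptors of the TGFb and BMP family. Its other groups are ERCC1_(+/+)_WT cells from tail tip and from skin of a female of 14 weeks, and 4FJ_(+/-)_OCT4-GFP cells (tail tip, female, 22 weeks) whose treatment is given as TGFB. Each line stands for 1 mouse or stock, so genotype, sex, age and line change together and p-values measure only the spread between the libraries of a group.

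Collagen chains are hydroxylated in the ER before they fold into a triple helix. Prolyl 4-hydroxylase, made of a catalytic alpha subunit (P4ha1, P4ha2 or P4ha3) and the beta subunit P4hb, which is also a protein disulfide isomerase, makes the 4-hydroxyproline that keeps the helix stable at body temperature. The lysyl hydroxylases Plod1, Plod2 and Plod3 make the hydroxylysine that carries sugars and later forms cross-links, Plod2 acting mostly on the telopeptides at the chain ends. The prolyl 3-hydroxylases P3h1 and P3h2 modify a few further prolines, and Serpinh1, the heat shock protein HSP47, binds the folded helix on its way to the Golgi. The hydroxylases hold an iron that ascorbate keeps reduced, and shortage of ascorbate gives the loose connective tissue of scurvy. Fibroblasts are the main makers of fibrillar collagen in skin.

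On build GRCm39, the build of the counts, P4ha1 lies on chromosome 10 (59159118 to 59209126), P4ha2 on chromosome 11 (53990921 to 54022491) and P4ha3 on chromosome 7 (99934727 to 99968906), all on the plus strand. P4hb lies on the minus strand of chromosome 11 (120451124 to 120464079). The lysyl hydroxylase genes are Plod1 on chromosome 4 (147994210 to 148021224, minus strand), Plod2 on chromosome 9 (92424276 to 92490481, plus strand) and Plod3 on chromosome 5 (137015873 to 137025502, plus strand). P3h1 lies on chromosome 4 (119090112 to 119106172, plus strand), P3h2 on chromosome 16 (25778038 to 25924534, minus strand) and Serpinh1 on chromosome 7 (98994583 to 99002446, minus strand). Counts were summed over all exons of a gene.

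Several of these genes are known targets of the hypoxia-inducible factors, so the letters around the start sites are shown for 4 members that hold a core of the hypoxia response element, namely the catalytic subunits P4ha1 and P4ha2, their beta subunit and the chaperone. They were chosen after the matches were seen and not for the size of their changes. RefSeq promoter windows (build GRCm38.p6, which is not the build of the counts) matched 8 of the 10 genes, all but Plod2 and P3h2. Below are the 250 bases before the start of P4ha1 (chr10:59323046-59323295, plus strand), P4ha2 (chr11:54100674-54100923, plus strand), P4hb (chr11:120573254-120573503, minus strand) and Serpinh1 (chr7:99353240-99353489, minus strand). They are written 5′ to 3′ on the strand of the gene. Capitals mark the hypoxia response core letters ACGTG and GCGTG, or their reverse complements CACGT and CACGC.
P4ha1: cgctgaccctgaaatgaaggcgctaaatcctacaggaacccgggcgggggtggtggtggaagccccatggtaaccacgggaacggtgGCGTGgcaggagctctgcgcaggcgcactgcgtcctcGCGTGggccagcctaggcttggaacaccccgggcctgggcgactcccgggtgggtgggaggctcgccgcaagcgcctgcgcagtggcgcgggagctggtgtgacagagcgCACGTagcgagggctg
P4ha2: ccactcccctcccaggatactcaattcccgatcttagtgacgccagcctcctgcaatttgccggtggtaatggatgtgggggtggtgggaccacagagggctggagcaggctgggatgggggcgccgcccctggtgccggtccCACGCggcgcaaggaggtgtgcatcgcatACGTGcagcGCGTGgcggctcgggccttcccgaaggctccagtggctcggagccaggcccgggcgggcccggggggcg
P4hb: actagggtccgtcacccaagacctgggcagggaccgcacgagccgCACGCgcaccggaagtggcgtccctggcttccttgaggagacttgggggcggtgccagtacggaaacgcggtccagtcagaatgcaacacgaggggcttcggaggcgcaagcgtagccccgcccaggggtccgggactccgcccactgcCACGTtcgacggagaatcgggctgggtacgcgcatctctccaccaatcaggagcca
Serpinh1: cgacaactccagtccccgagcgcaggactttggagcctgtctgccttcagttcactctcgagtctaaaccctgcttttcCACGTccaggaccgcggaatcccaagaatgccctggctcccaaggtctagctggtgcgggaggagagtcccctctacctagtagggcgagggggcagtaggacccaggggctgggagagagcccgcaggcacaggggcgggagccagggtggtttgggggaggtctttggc
Over the whole window, which also takes in the first 50 transcribed bases, ACGTG stood on either strand in 6 of the 8 genes with a window (P4ha1, P4ha2, P4hb, Plod3, P3h1 and Serpinh1) and in 19.6% of 32851 mouse promoter windows of the same length. GCGTG stood in 6 of 8 genes and in 32.4% of all windows. Counted from the start site, ACGTG lies at -16 to -12 in P4ha1, at -78 to -74 and 11 to 15 in P4ha2, at -56 to -52 and 36 to 40 in P4hb and at -171 to -167 in Serpinh1. The heat shock element GAANNTTC was found in the window of Plod1 alone and in 7.86% of all windows, and the box CCAAT in P4hb, Plod3 and P3h1 and in 37.4% of all windows. P4ha3 has a window that holds none of these motifs. These are matches of letters and say nothing of binding.

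Library totals ran from 16538374 to 30599138 counts, and precision was set by the spread between libraries rather than by depth, except for P3h2 with 7 to 381 counts per library. Of the 24 libraries of the second table, 3 stood closer to a library of another group than to their own (Spearman's rho over genes): WT skin library 1, Repsox library 2 and Vactosertib library 2. The changes of members in those groups are given below with and without them. In the first table library 2 of WT day 2 held 12.5 CPM of Pou5f1 (Oct4, one of the induced factors) beside 41.5 and 48.8 CPM in the other libraries of its group, and the changes from day 0 to day 2 and from day 2 to day 4 in WT cells without VC are also given without it. Ercc1 was at 8.04 to 18.6 CPM in D/KO and at 16.9 to 29.1 CPM in WT libraries of the first table, ranges that overlap. In the second table it did not separate the genotypes, at 20.6, 20.3 and 20.9 CPM in control D/KO and at 19.2, 13.3 and 21.7 CPM in WT tail tip libraries. Ercc1 levels therefore give no check of the labels in the second table. The reads of 5 members overlap a gene on the opposite strand and, since the strand setting of the counting is not stated, cannot be told apart from it. In the first table the partner carried the equivalent of 22.7% of the reads of P3h2 (Gm4524), 18.7% of P3h1 (AU022252), 7.99% of Plod3 (Znhit1), 1.4% of Plod2 (B430319G15Rik) and 0.01% of P4hb (Gm57341). In the second table these shares were 26.2%, 14.1%, 6.52%, 0.551% and 0.009%.

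All 10 genes were detected in every library. Per kb of gene length, Serpinh1 and P4hb were the most abundant and P3h2 the least abundant in each of the 12 groups of the first table. At day 0 in D/KO cells the levels, in TMM-scaled CPM (counts scaled to library size) per kb, were 1090 for Serpinh1, 782 for P4hb, 218 for P4ha1, 127 for Plod1, 109 for Plod3, 69.4 for P4ha2, 58.5 for P3h1, 27.8 for Plod2, 21 for P4ha3 and 0.881 for P3h2. WT cells had the same top 3 at 754, 486 and 152 CPM per kb, and then Plod3 (73.8) above Plod1 (61.5). P3h2 is therefore read with care throughout.

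Before doxycycline, 9 of the 10 genes were higher in D/KO than in WT cells, a comparison in which 43.2% of the 15832 genes tested were called (edgeR quasi-likelihood test, adjusted p under 0.05) and 22.1% were called upward. P4ha2 was at 423, 381 and 495 CPM in the 3 D/KO libraries and at 184, 194 and 170 CPM in the WT libraries. The groups stood well apart, a log2 difference of 1.25 ± 0.137 (SE, edgeR adjusted p = 2.67e-09). Plod1 differed by 1.04 ± 0.107 (edgeR adjusted p = 6.35e-10) and Plod2 by 1.00 ± 0.165 (edgeR adjusted p = 6.72e-06). The other 6 called genes were 1.43 to 1.61 times as high in D/KO cells. P3h2 did not pass the test, at -0.21 with a 95% interval from -0.91 to 0.48. Cell type markers also differed between these lines at day 0. Fibroblast markers (8 genes, of which 4 were higher and 3 lower in D/KO cells) summed to 71500 to 99300 CPM in D/KO and 39800 to 42100 CPM in WT libraries. Endothelial markers (4 genes, all higher in D/KO cells) summed to 512 to 599 CPM in D/KO and 14.4 to 17.2 CPM in WT libraries, and skeletal muscle markers (5 genes) to 20.8 to 34.4 and 1.82 to 3.01 CPM, with Myod1, Myf5, Myog and Pax7 at 0 in both groups. Keratinocyte markers (7 genes) summed to 3.87 to 5.42 CPM in D/KO and 22.2 to 29.4 CPM in WT libraries. Krt5 was at 0 in both groups, and Krt14 and Krt1 were at 0 in the WT libraries. The part of these markers in the result was not tested.

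**Figure D1:**
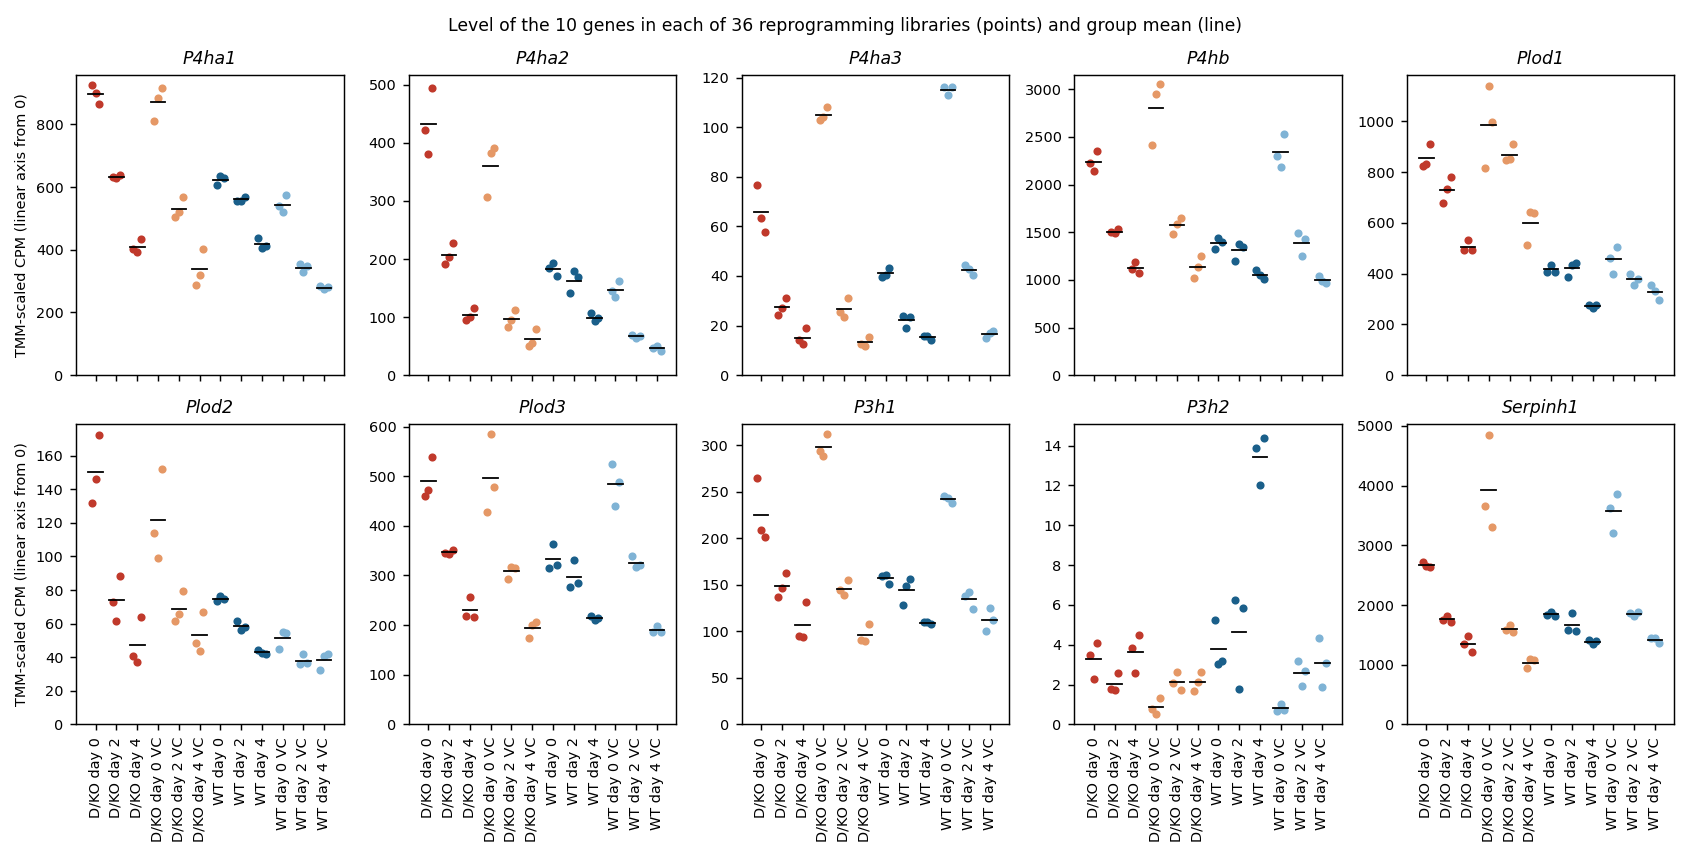
Levels of the 10 genes in the 36 libraries of the reprogramming table (TMM-scaled CPM, linear axis from 0), by line, VC and day of doxycycline, with 1 point per library and a line at the mean of 3. P4ha2 in D/KO cells stands at 381 to 495 CPM at day 0 and at 95.4 to 116 CPM at day 4, within reach of the WT libraries at day 4 (92.6 to 107 CPM).

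Over the days of doxycycline the RNA of nearly the whole group fell. Factor induction, doxycycline itself and time in culture cannot be told apart in these groups. In D/KO cells 8 of 10 genes fell by day 2 and 9 of 10 by day 4, and none rose. Of all genes tested, 27.4% were called at day 2 (13.2% downward, 14.3% upward) and 37% at day 4 (18.7% downward, 18.3% upward). The median log2 fold change of the 10 was -0.6 at day 2 and -1.08 at day 4, beside 0 over all genes tested at both days. WT cells moved less. There 1 gene, P4ha3, fell by day 2 and 9 fell by day 4 while P3h2 rose, in comparisons with 10.6% (4.3% downward, 6.26% upward) and 24.5% (12.8% downward, 11.7% upward) of genes called and member medians of -0.15 and -0.59. Without library 2 of WT day 2, the genes called at day 2 went from 1672 to 1078 and P4ha3 was still the one member called (-0.79, edgeR adjusted p = 0.00022).

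Among the catalytic subunits of prolyl 4-hydroxylase, P4ha1 is the main form in most tissues. Its level in D/KO cells was 926, 901 and 864 CPM at day 0, 631, 629 and 637 CPM at day 2, and 402, 394 and 434 CPM at day 4. No library of one day reached those of the day before, and the fall to day 4 was -1.13 ± 0.0906 on the log2 scale (edgeR adjusted p = 9.25e-13). In WT cells it went from 606, 635 and 630 CPM through 557, 557 and 567 CPM to 439, 406 and 413 CPM (-0.57 ± 0.0898 at day 4, edgeR adjusted p = 6.68e-06). The WT groups were also separate, although the change to day 2 did not pass the test (edgeR adjusted p = 0.306). By day 4 the libraries of both genotypes covered the same range.

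P4ha2, the second catalytic form, fell more steeply. D/KO cells went from 381 to 495 CPM at day 0 to 192, 203 and 227 CPM at day 2 and 95.4, 100 and 116 CPM at day 4. That is a log2 change of -1.06 ± 0.136 and then -2.06 ± 0.14, or 0.24 of the starting level (edgeR adjusted p = 1.33e-14 at day 4). WT cells stayed at 141, 179 and 169 CPM at day 2, which overlaps their day 0 values, and were at 107, 92.6 and 97.9 CPM at day 4 (-0.88 ± 0.137, edgeR adjusted p = 5.94e-06).

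P4ha3, the alpha subunit with the lowest level per kb in these cells at day 0 without VC, was at 76.6, 63.5 and 57.6 CPM in D/KO cells at day 0 and at 14, 12.5 and 19 CPM at day 4. Its change of -2.12 ± 0.136 (edgeR adjusted p = 2.61e-15) was the largest of the 10 in size in that comparison. It was also the one member called in WT cells at day 2, where it went from 39.7, 40.4 and 43.1 CPM to 23.9, 19 and 23.5 CPM (-0.89 ± 0.132, edgeR adjusted p = 6.04e-06), on the way to 14 to 16 CPM at day 4.

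The beta subunit P4hb also fell, by less than any alpha subunit at day 4 and, in D/KO cells at day 2 (-0.57), by slightly more than P4ha1 (-0.50), differences that were not tested. The D/KO libraries held 2230, 2140 and 2350 CPM at day 0, 1500, 1490 and 1530 CPM at day 2 and 1110, 1190 and 1070 CPM at day 4 (-0.99 ± 0.098, edgeR adjusted p = 1.52e-10). WT libraries held 1320, 1440 and 1400 CPM at day 0 and 1100, 1050 and 1010 CPM at day 4 (-0.40 ± 0.0972, edgeR adjusted p = 0.00208). All D/KO values at day 0 were above all WT values, and at day 4 they were not.

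Of the lysyl hydroxylases, Plod2 changed most. Its D/KO libraries held 132, 146 and 172 CPM at day 0, 72.9, 61.3 and 88.6 CPM at day 2 and 40.8, 36.9 and 63.7 CPM at day 4 (-1.67 ± 0.168, edgeR adjusted p = 2.75e-10). The WT libraries ran from 73.2 to 76.4 CPM at day 0 and from 42.2 to 44.5 CPM at day 4 (-0.79 ± 0.167, edgeR adjusted p = 0.000444). The D/KO groups did not overlap from one day to the next except that library 3 of day 4 (63.7 CPM) reached above the lowest library of day 2 (61.3 CPM). Plod1 was at 825, 833 and 909 CPM at day 0 and 679, 732 and 782 CPM at day 2 in D/KO cells. Each library of day 2 was below each of day 0, although the change did not pass the test (-0.23, 95% interval -0.44 to -0.01, edgeR adjusted p = 0.111). It fell to 494, 534 and 492 CPM at day 4 (-0.76 ± 0.106, edgeR adjusted p = 3.48e-07). In WT cells Plod1 was at 388 to 440 CPM at day 2 and at 264 to 278 CPM at day 4 (-0.60 ± 0.107 from day 0, edgeR adjusted p = 4.16e-05). Plod3, the form that also glycosylates hydroxylysine, fell by 1.09 on the log2 scale in D/KO and by 0.64 in WT cells at day 4.

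P3h1, which works in a complex with Crtap and cyclophilin B (Ppib), fell by 1.07 on the log2 scale in D/KO cells, from 201 to 265 CPM at day 0 to 94.5 to 132 CPM at day 4. The WT change was -0.53 ± 0.113 (edgeR adjusted p = 0.000611). P3h2 went the other way in WT cells, from 5.25, 3.01 and 3.17 CPM at day 0 and 6.25, 1.8 and 5.83 CPM at day 2 to 13.9, 12 and 14.4 CPM at day 4 (1.82 ± 0.323, edgeR adjusted p = 4.7e-05). All 3 WT libraries of day 4 were above all libraries of days 0 and 2. In D/KO cells P3h2 stayed between 1.74 and 4.48 CPM and passed no test without VC.

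The chaperone Serpinh1 was at 2720, 2650 and 2640 CPM at day 0, 1750, 1820 and 1720 CPM at day 2 and 1350, 1480 and 1220 CPM at day 4 in D/KO cells (-0.98 ± 0.107, edgeR adjusted p = 1.5e-09). In WT cells it went from 1830, 1880 and 1820 CPM to 1420, 1350 and 1390 CPM at day 4 (-0.41 ± 0.106, edgeR adjusted p = 0.00364). The WT fall was separate from the spread of the libraries but less than that of D/KO cells.

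Between days 2 and 4 alone, 9 genes fell further in D/KO cells (9.57% of genes called, 5.07% downward and 4.5% upward). In WT cells 7 fell and P3h2 rose (21.5% called, 12.3% downward and 9.25% upward). With VC 8 fell in D/KO (15.6% called, 7.84% downward and 7.76% upward) and 6 in WT cells (20.1% called, 10.1% downward and 9.95% upward). These contrasts share the groups of the day 0 comparisons. Leaving out single libraries moved the number of genes called. Without library 2 of WT day 2 it went from 3406 to 1117 in WT cells, where 5 members fell and P3h2 rose, and without library 3 of WT day 4 to 2150. Without library 1 of D/KO day 4 it went from 1515 to 975, with 6 members falling, and without library 1 of WT day 2 plus VC from 3176 to 1744, with 5 falling. Several member calls rested on single libraries. In D/KO cells Plod2 (-0.66) was lost without library 3 of day 2 or library 1 or 2 of day 4 (edgeR adjusted p = 0.0909, 0.0689 and 0.0809). Serpinh1 (-0.39) was lost without library 2 of day 2 or library 1 or 3 of day 4 (edgeR adjusted p = 0.0603, 0.0551 and 0.0846), and P3h1 (-0.48) without library 1 of day 4 (0.0526). In WT cells P4hb (-0.31) was lost without library 2 or 3 of day 2 or of day 4 (edgeR adjusted p = 0.123, 0.0551, 0.0624 and 0.0854) and P3h1 (-0.40) without library 2 of day 2 (0.0651). Plod2 in D/KO cells with VC (-0.38) was called when library 3 of day 4 plus VC was left out (-0.59, 0.0205). With VC, P4ha1 in WT cells (-0.30) was lost without library 1 of day 2 or library 2 of day 4 (edgeR adjusted p = 0.077 and 0.0621).

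Each day with VC was compared with day 0 plus VC. How long the cells of each group had been in VC is not given in the sources used here. In D/KO cells 8 genes fell and P3h2 rose at day 2 plus VC, and 9 fell and P3h2 rose at day 4 plus VC. Of all genes, 47.4% and 54.1% were called in these comparisons (23.6% and 26.2% downward, 23.8% and 27.9% upward). WT cells had 7 falling and 1 rising at day 2 plus VC and 9 falling and 1 rising at day 4 plus VC, beside 27.5% and 44.7% of genes called (13.7% and 22% downward, 13.8% and 22.7% upward). The 10 genes had a median of -1.36 for D/KO and of -1.17 for WT cells at day 4 plus VC. Markers moved over the same days: from day 0 plus VC to day 4 plus VC the fibroblast sums went from 163000 to 234000 CPM to 27900 to 29900 CPM in D/KO and from 140000 to 156000 CPM to 44800 to 53900 CPM in WT cells. Endothelial sums went up in D/KO cells, from 180 to 217 CPM to 378 to 509 CPM, and in WT cells from 4.67 to 7.08 CPM to 98.1 to 116 CPM. Their part in the result was not tested.

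P4ha3 again led, from 103, 104 and 108 CPM at day 0 plus VC to 12.4, 11.8 and 15.6 CPM at day 4 plus VC in D/KO cells (-2.98 ± 0.139, edgeR adjusted p = 1.53e-19). In WT cells it went from 116, 113 and 116 CPM to 15.1, 17.2 and 17.7 CPM (-2.79 ± 0.137, edgeR adjusted p = 2.16e-18). Serpinh1 fell from 3660, 4840 and 3300 CPM to 940, 1090 and 1080 CPM in D/KO cells (-1.92 ± 0.109, edgeR adjusted p = 3.57e-17). Both genes started from a raised level with VC, described below. P4ha2 was at 306, 382 and 391 CPM at day 0 plus VC and at 49.6, 56.2 and 80.2 CPM at day 4 plus VC in D/KO cells (-2.54 ± 0.143, edgeR adjusted p = 3.19e-17), its lowest D/KO levels of the table. P3h2 rose from 0.777, 0.527 and 1.33 CPM to 1.69, 2.12 and 2.63 CPM (1.28 ± 0.426, edgeR adjusted p = 0.0113), a change between very low levels.

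Against day 0 without VC as the baseline, P3h2 no longer rose in either line, and the WT day 2 plus VC count went from 8 to 3. P4ha3 and Serpinh1 then stood at 0.05 and 0.01 in WT cells at day 2 plus VC. The rise of P3h2 in D/KO cells was lost at day 2 plus VC without library 1 or 2 of day 0 plus VC or library 2 of day 2 plus VC (edgeR adjusted p = 0.0535, 0.0756 and 0.0589) and at day 4 plus VC without library 2 of day 0 plus VC (0.0652). The fall of Plod2 in WT cells at day 4 plus VC (-0.43) was lost without library 2 or 3 of day 0 plus VC or library 1 or 2 of day 4 plus VC (edgeR adjusted p = 0.11, 0.111, 0.176 and 0.0567). Plod1 was called as a fall at day 2 plus VC without library 1 of day 0 plus VC in D/KO cells (-0.30, edgeR adjusted p = 0.0231) and without library 2 of day 0 plus VC in WT cells (-0.36, 0.0191), as was Plod2 in WT cells without library 1 of that group (-0.52, 0.0363).

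**Figure D2:**
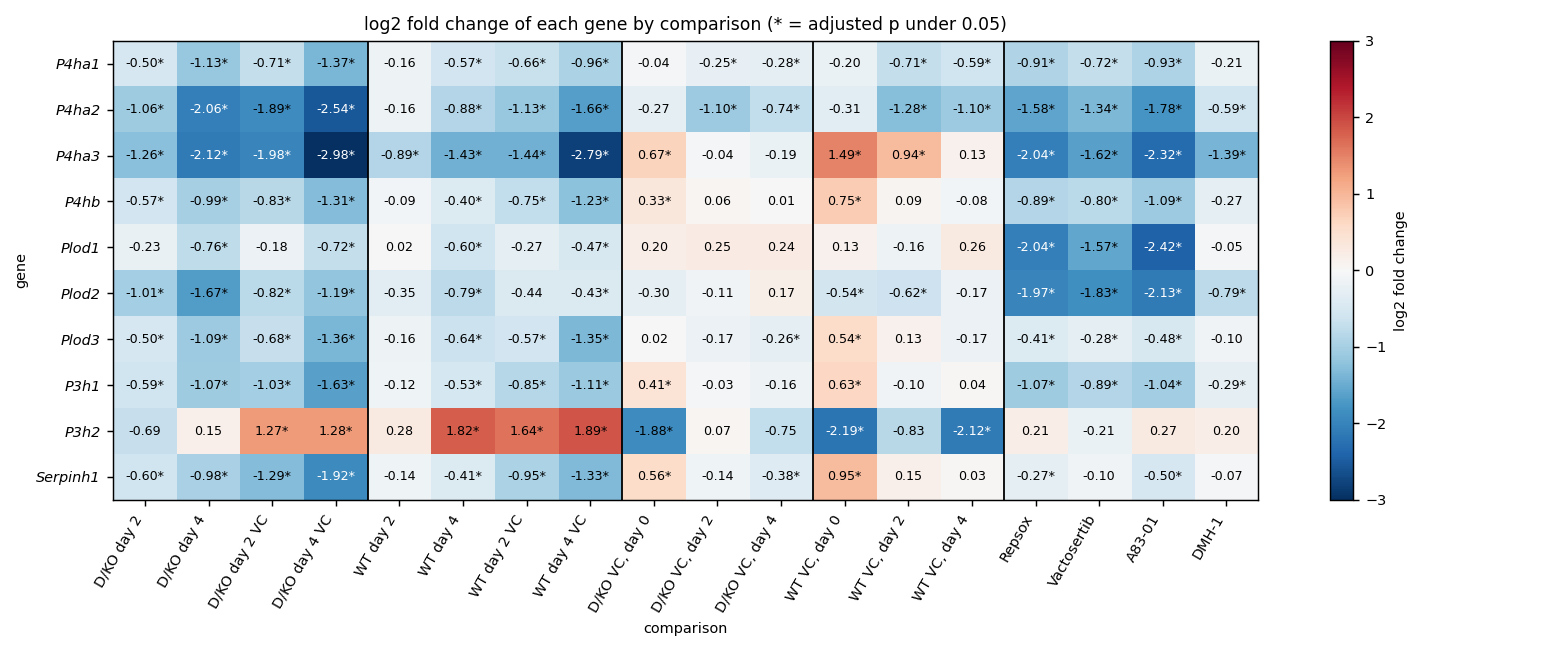
Log2 fold changes of the 10 genes (rows) in 18 comparisons (columns): each day against day 0, VC against no VC, and inhibitor against control. Blue is lower and red higher, and an asterisk marks an edgeR adjusted p under 0.05. The columns of the change to day 4 are blue for 9 genes in both lines, while P3h2 is red in WT cells (1.82), and in the DMH-1 column 4 genes are called.

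Markers of cell types moved with these changes. The 8 fibroblast markers, which include Col1a1 and Col1a2, summed to 71500 to 99300 CPM at day 0 and 29400 to 33100 CPM at day 4 in D/KO libraries, and to 39800 to 42100 CPM and 32100 to 34400 CPM in WT libraries. Keratinocyte markers (7 genes) rose in sum from 3.87 to 5.42 CPM at day 0 to 65 to 77.6 CPM at day 4 and to 402 to 530 CPM at day 4 plus VC in D/KO cells, with Krt5 at 0 in the D/KO libraries of day 0 and present at day 4. In WT cells they summed to 22.2 to 29.4 CPM at day 0, with Krt5, Krt14 and Krt1 at 0, and to 43.5 to 46.7 CPM at day 4. Endothelial markers went from 512 to 599 CPM to 302 to 327 CPM at day 4 in D/KO cells, where 3 of 4 fell and 1 rose, and from 14.4 to 17.2 CPM to 95.3 to 95.7 CPM in WT cells, where 1 rose. Skeletal muscle markers went from 20.8 to 34.4 CPM to 11.2 to 14 CPM in D/KO cells and from 1.82 to 3.01 CPM to 4.09 to 6.62 CPM in WT cells. Of these 5 genes, Myod1, Myf5, Myog and Pax7 were at 0 in all these libraries. Chondrocyte markers (5 genes) went from 99.6 to 155 CPM to 118 to 135 CPM in D/KO cells and from 82 to 88.8 CPM to 124 to 133 CPM in WT cells. In bulk samples fewer cells of a type and less RNA per cell cannot be told apart, and the part of these markers in the results was not tested.

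To compare the lines directly, the WT change was subtracted from the D/KO change. At day 4, 9 of 10 genes differed, all with the lower value in D/KO cells, in a contrast where 14.3% of genes were called and 7.04% downward. The median difference of the 10 was -0.58. P4ha2 fell by 1.18 more on the log2 scale in D/KO cells (SE 0.192, edgeR adjusted p = 2.73e-05), and Plod2 by 0.87 more (SE 0.234, edgeR adjusted p = 0.00886). P3h2 differed by -1.67 ± 0.469 (edgeR adjusted p = 0.0126), since it rose in WT and not in D/KO cells. Plod1 did not differ beyond its error (-0.15, 95% interval -0.46 to 0.15). These differences sit beside higher D/KO levels at day 0. Day 4 levels overlap between the lines for 8 of the 10 genes, all but Plod1 and P3h2. Endothelial and skeletal muscle sums went down in D/KO and up in WT cells, with Myod1, Myf5, Myog and Pax7 at 0. Over all days, with and without VC, Pou5f1 had a median of 69.6 CPM (0.471 to 150) in D/KO libraries. In WT libraries it was 45.2 CPM (1.29 to 108). The part of these in the differences was not tested.

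Not all of those calls were stable. Plod3 (-0.45) was lost without library 3 of D/KO day 0, library 1 or 3 of D/KO day 4, or library 1 or 3 of WT day 0 or WT day 4 (edgeR adjusted p from 0.0549 to 0.0865). P3h1 (-0.54) was lost without library 1 of D/KO day 0 or library 1 or 2 of D/KO day 4 (edgeR adjusted p = 0.0814, 0.0643 and 0.067). The other 7 calls held when any 1 library was left out.

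At day 2 the difference was called for P4ha2 (-0.90 ± 0.191, edgeR adjusted p = 0.00217) and P4hb (-0.48 ± 0.137, edgeR adjusted p = 0.0262), with 6.54% of genes called. The P4hb call was lost without library 3 of D/KO day 0, library 1 or 2 of D/KO day 2, library 1 or 3 of WT day 0 or library 2 or 3 of WT day 2 (edgeR adjusted p from 0.0561 to 0.0776). P3h1 was called as well without library 3 of D/KO day 0 or library 1 of WT day 2 (edgeR adjusted p = 0.0407 and 0.0335), and Plod2 without library 3 of D/KO day 2 (0.0417). At day 2 plus VC it was called for P4ha2 (-0.76 ± 0.193, edgeR adjusted p = 0.00566) and P4ha3 (-0.54 ± 0.181, edgeR adjusted p = 0.0409), with 13.9% called. The P4ha3 call was lost in 10 of the 12 fits that each left out a library, all but those without library 3 of D/KO or of WT day 2 plus VC (edgeR adjusted p from 0.0547 to 0.126). Serpinh1 was called without library 3 of D/KO day 0 plus VC (0.0313). At day 4 plus VC, where 29.4% of genes were called, 5 members differed: P4ha1 (-0.41), P4ha2 (-0.87), Plod2 (-0.77), P3h1 (-0.52) and Serpinh1 (-0.59). P4ha1 was lost without library 1 of D/KO day 4 plus VC (edgeR adjusted p = 0.0647) and Plod2 without library 3 of D/KO day 0 plus VC or library 2 of D/KO day 4 plus VC (0.0659 and 0.0502). P4ha2 was the member called in all 4 of these contrasts, which share the day 0 groups by VC status.

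**Figure D3:**
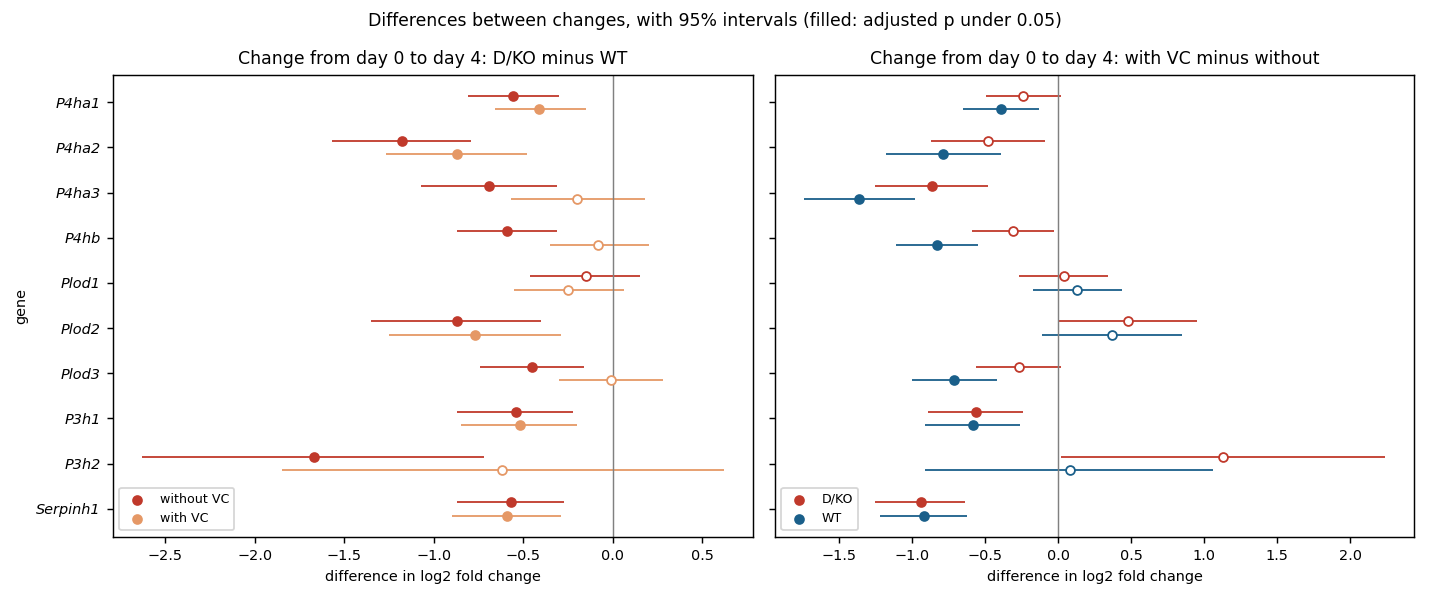
Differences in log2 fold change from day 0 to day 4 for the 10 genes, with 95% intervals: D/KO minus WT (left, without and with VC) and with VC minus without (right, in each line). Filled points passed an edgeR adjusted p under 0.05, and the P4ha2 points of the change to day 4 stand at -1.18 without VC and -0.87 with VC.

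VC supplies the cofactor of these enzymes, and its addition was compared with its absence at each day. Before doxycycline, some members rose with VC and others fell. Serpinh1 rose in WT cells from 1830, 1880 and 1820 CPM to 3630, 3210 and 3860 CPM (0.95 ± 0.106, edgeR adjusted p = 8.54e-09). P4ha3 rose from 39.7, 40.4 and 43.1 CPM to 116, 113 and 116 CPM (1.49 ± 0.129, edgeR adjusted p = 2.48e-11). P4hb, from 1320 to 1440 CPM, rose to 2300, 2180 and 2530 CPM (0.75 ± 0.0975, edgeR adjusted p = 1.83e-07). In all 3 genes each library with VC was above each library without it.

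Plod3 (0.54 ± 0.101) and P3h1 (0.63 ± 0.113) also rose in WT cells, while P3h2 fell from 3.01 to 5.25 CPM to 0.695 to 1.04 CPM (-2.19 ± 0.405, edgeR adjusted p = 6.61e-05) and Plod2 fell from 73.2, 76.4 and 74.7 CPM to 45.1, 55 and 54.5 CPM (-0.54 ± 0.167, edgeR adjusted p = 0.0131). The Plod2 call was lost without library 1 of WT day 0 plus VC (edgeR adjusted p = 0.0774). P4ha1 and P4ha2 stood at -0.20 and -0.31 and did not pass the test (edgeR adjusted p = 0.0926 and 0.0824). In all, 5 genes rose and 2 fell, where 29.4% of all genes were called (15.1% upward, 14.4% downward).

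D/KO cells gave 4 rising genes and 1 falling gene at day 0 (26.1% of genes called, 12.1% upward, 14% downward). P4ha3 rose from 57.6 to 76.6 CPM to 103 to 108 CPM (0.67 ± 0.127, edgeR adjusted p = 8.23e-05) and Serpinh1 from 2640 to 2720 CPM to 3300 to 4840 CPM (0.56 ± 0.106, edgeR adjusted p = 9.21e-05). P3h2 fell to 0.527 to 1.33 CPM (-1.88 ± 0.415, edgeR adjusted p = 0.000632). P3h1 (0.41) and P4hb (0.33) also passed, P3h1 being lost without library 3 of D/KO day 0 (edgeR adjusted p = 0.0525) and P4hb without library 2 of D/KO day 0 or library 3 of D/KO day 0 plus VC (0.0506 and 0.0703). Plod1 and Plod2 were called without library 1 or library 3 of D/KO day 0 plus VC, respectively (0.32, edgeR adjusted p = 0.03, and -0.49, 0.0378). The effect of VC at day 0 was smaller in D/KO than in WT cells for P4ha3 (-0.82 ± 0.179, edgeR adjusted p = 0.00165), Plod3 (-0.52 ± 0.143, edgeR adjusted p = 0.0107) and P4hb (-0.42 ± 0.137, edgeR adjusted p = 0.032), with 15.3% of genes called. Without library 1 of D/KO day 0 plus VC the genes called went from 2419 to 1560, and the latter pair was lost (edgeR adjusted p = 0.0552 for Plod3 and 0.132 for P4hb), and P4hb also without library 3 of D/KO day 0, library 1 or 3 of WT day 0 or library 3 of WT day 0 plus VC (0.0786, 0.0813, 0.0583 and 0.106). Serpinh1 was called too without library 2 of either group with VC (D/KO 0.00266, WT 0.0389).

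Markers of cell types moved with VC at day 0. The 8 fibroblast markers, among them Col1a1 and Col1a2, summed to 39800 to 42100 CPM without and 140000 to 156000 CPM with VC in WT cells and to 71500 to 99300 and 163000 to 234000 CPM in D/KO cells. The 4 endothelial markers went from 512 to 599 CPM to 180 to 217 CPM in D/KO cells, where all 4 fell, and from 14.4 to 17.2 CPM to 4.67 to 7.08 CPM in WT cells, where 1 fell. The 5 chondrocyte markers went from 99.6 to 155 CPM to 20.8 to 34.9 CPM in D/KO and from 82 to 88.8 CPM to 29.3 to 37 CPM in WT cells, with 2 of 3 tested falling in each line. The 7 keratinocyte markers summed to 3.87 to 5.42 CPM without and 8.56 to 14 CPM with VC in D/KO cells, where Krt5, Krt14 and Krt1 were at 0 with VC. In WT cells they summed to 22.2 to 29.4 and 40 to 44.1 CPM. There Krt5 and Krt1 were at 0 in both groups and Krt14 was at 0 without VC. The 5 skeletal muscle markers went down in sum in D/KO cells, from 20.8 to 34.4 CPM to 4.82 to 9.75 CPM, and up in WT cells, from 1.82 to 3.01 CPM to 8.05 to 11.3 CPM. Myod1, Myog and Pax7 were at 0 in all these groups, and Myf5 in all but the D/KO libraries with VC. The part of the markers in the results was not tested.

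During reprogramming P4ha2 was lower with VC in both lines. At day 2, P4ha2 was at 192, 203 and 227 CPM in D/KO cells without VC and at 82.2, 95 and 113 CPM with it (-1.10 ± 0.137, edgeR adjusted p = 9.95e-08). The WT libraries held 141, 179 and 169 CPM without and 69, 64.3 and 68.2 CPM with VC (-1.28 ± 0.139, edgeR adjusted p = 7.91e-09). P4ha2 groups did not overlap in either line. At day 4 the P4ha2 difference was -0.74 ± 0.138 in D/KO and -1.10 ± 0.14 in WT cells (edgeR adjusted p = 5e-05 and 1.66e-07). P4ha1 in WT cells was at 354, 328 and 347 CPM with VC at day 2 (-0.71 ± 0.0901, edgeR adjusted p = 1.95e-07) and at 283, 274 and 280 CPM at day 4 (-0.59 ± 0.09, edgeR adjusted p = 4.91e-06), each below all libraries without VC.

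In D/KO cells P4ha1 differed by less, -0.25 at day 2 and -0.28 at day 4. The call was lost at day 2 without any 1 of the 3 libraries without VC or library 1 or 2 with VC (edgeR adjusted p from 0.0732 to 0.144) and at day 4 without library 3 without VC or library 1 or 2 with VC (0.0601, 0.156 and 0.0686). The D/KO counts were 2 of 10 at day 2, both falls, and 4 of 10 at day 4, all falls (25.3% and 34.5% of genes called, 14.2% and 17.7% downward, 11.1% and 16.8% upward). At day 4 Serpinh1 (-0.38) passed and Plod3 (-0.26) did so but for fits without library 1 or 2 of either group (edgeR adjusted p = 0.0547, 0.249, 0.231 and 0.0694). Without library 1 of D/KO day 4 plus VC, Plod1 was called upward (0.34, edgeR adjusted p = 0.0217), and without library 3 of D/KO day 4 so was Plod2 (0.45, 0.0337). In WT cells 3 fell and P4ha3 rose at day 2 (26.6% called, 13% downward, 13.5% upward), and 3 fell at day 4 (22.4% called, 10.4% downward), among them P3h2 (-2.12 ± 0.33, edgeR adjusted p = 6.34e-06). P3h2 was called at WT day 2 without library 2 of the group without VC (-1.22, edgeR adjusted p = 0.00461), and Plod1 at WT day 4 without library 3 of the group with VC (0.33, 0.0492).

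Markers also differed between the groups with and without VC at these days. Chondrocyte sums in D/KO cells were 97.5 to 111 CPM without and 26.7 to 30 CPM with VC at day 2, and 118 to 135 and 13 to 15.4 CPM at day 4. In WT cells they were 95.1 to 109 and 59 to 63.5 CPM at day 2, and 124 to 133 and 19.4 to 23.7 CPM at day 4. Endothelial sums in D/KO cells were 423 to 490 CPM without and 186 to 211 CPM with VC at day 2, where all 4 genes fell, and 302 to 327 and 378 to 509 CPM at day 4. Keratinocyte sums at day 2 were 31 to 42.3 and 156 to 188 CPM in D/KO cells. In WT cells they were 32.1 to 37.6 and 80 to 90.8 CPM. Fibroblast sums at day 2 were 42600 to 43000 and 58800 to 61000 CPM in D/KO cells. In WT cells they were 34000 to 46300 and 63500 to 74800 CPM. Skeletal muscle sums at day 2 were 14.5 to 23.1 and 2.74 to 4.62 CPM in D/KO cells. In WT cells they went the other way, at 4.06 to 4.47 and 7.72 to 10.9 CPM. Myod1, Myf5 and Myog were at 0 in these 4 groups. The part of these markers in the results was not tested.

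The change from day 0 to day 4 was itself compared with and without VC. Serpinh1 fell by 0.94 more with VC in D/KO cells (SE 0.15, edgeR adjusted p = 7.71e-06) and by 0.92 more in WT cells (SE 0.15, edgeR adjusted p = 3.12e-05). P4ha3 fell by 0.86 more in D/KO and by 1.36 more in WT cells. P3h1 fell by 0.56 more in D/KO cells, a call that was lost without library 3 of D/KO day 4 (edgeR adjusted p = 0.0541), and by 0.58 more in WT cells. In WT cells the difference was also called for P4hb (-0.83), P4ha2 (-0.79), Plod3 (-0.71) and P4ha1 (-0.39), making 7 genes against 3 in D/KO cells (15.3% and 26.9% of genes called). Each difference also takes in the change with VC at day 0. At day 4 in WT cells, mean levels with and without VC were 1420 and 1390 CPM for Serpinh1 and 16.7 and 15.2 CPM for P4ha3. P3h1 was at 112 and 109 CPM, P4hb at 996 and 1050 CPM and Plod3 at 190 and 214 CPM. P4ha1 was at 279 and 419 CPM and P4ha2 at 46.4 and 99.3 CPM. In D/KO cells P4ha1 (-0.24) and P4ha2 (-0.48) did not pass (edgeR adjusted p = 0.175 and 0.0626). P4ha1 in WT cells was lost without library 1 or 3 of day 0 or of day 4, library 3 of day 0 plus VC or library 2 or 3 of day 4 plus VC (edgeR adjusted p from 0.0505 to 0.0919). Leaving out library 3 of D/KO day 4 plus VC raised the count from 3 to 6 by adding P4ha1 (-0.38), P4ha2 (-0.70) and P4hb (-0.38), and leaving out library 1 of day 0 plus VC raised it to 5 (P4ha2, -0.58, and P4hb, -0.41). P4ha2 was also called without library 3 of D/KO day 0 (edgeR adjusted p = 0.0293), and Plod2 without library 3 of D/KO day 4 or of D/KO day 0 plus VC (0.76 and 0.67). A difference between the lines in this effect was not tested.

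Since members of a family do the same reaction, their shares within the family were followed, on the CPM per kb scale. P4ha1 made up 70.7% ± 2.35 (SD, n = 3) of the 3 alpha subunit transcripts in D/KO cells at day 0 and 82.3% ± 1.1 at day 4, since P4ha2 and P4ha3 fell further. With VC the D/KO share at day 4 was 85.3% ± 0.65. In WT cells at day 0, P4ha1 had 78.2% ± 0.622 without and 68.6% ± 0.242 with VC, where P4ha3 went from 6.75% ± 0.297 to 19.1% ± 0.713. Among the lysyl hydroxylases Plod1 had 48.2% ± 1.04 in D/KO cells at day 0 and 62.6% ± 1.64 at day 4 plus VC. Of the summed transcripts of P3h1 and P3h2, P3h1 made up at least 88.7% in every group mean, lowest at WT day 4, where P3h2 reached 11.3% ± 1.03. The related gene P3h3 is not in this sum.

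**Figure D4:**
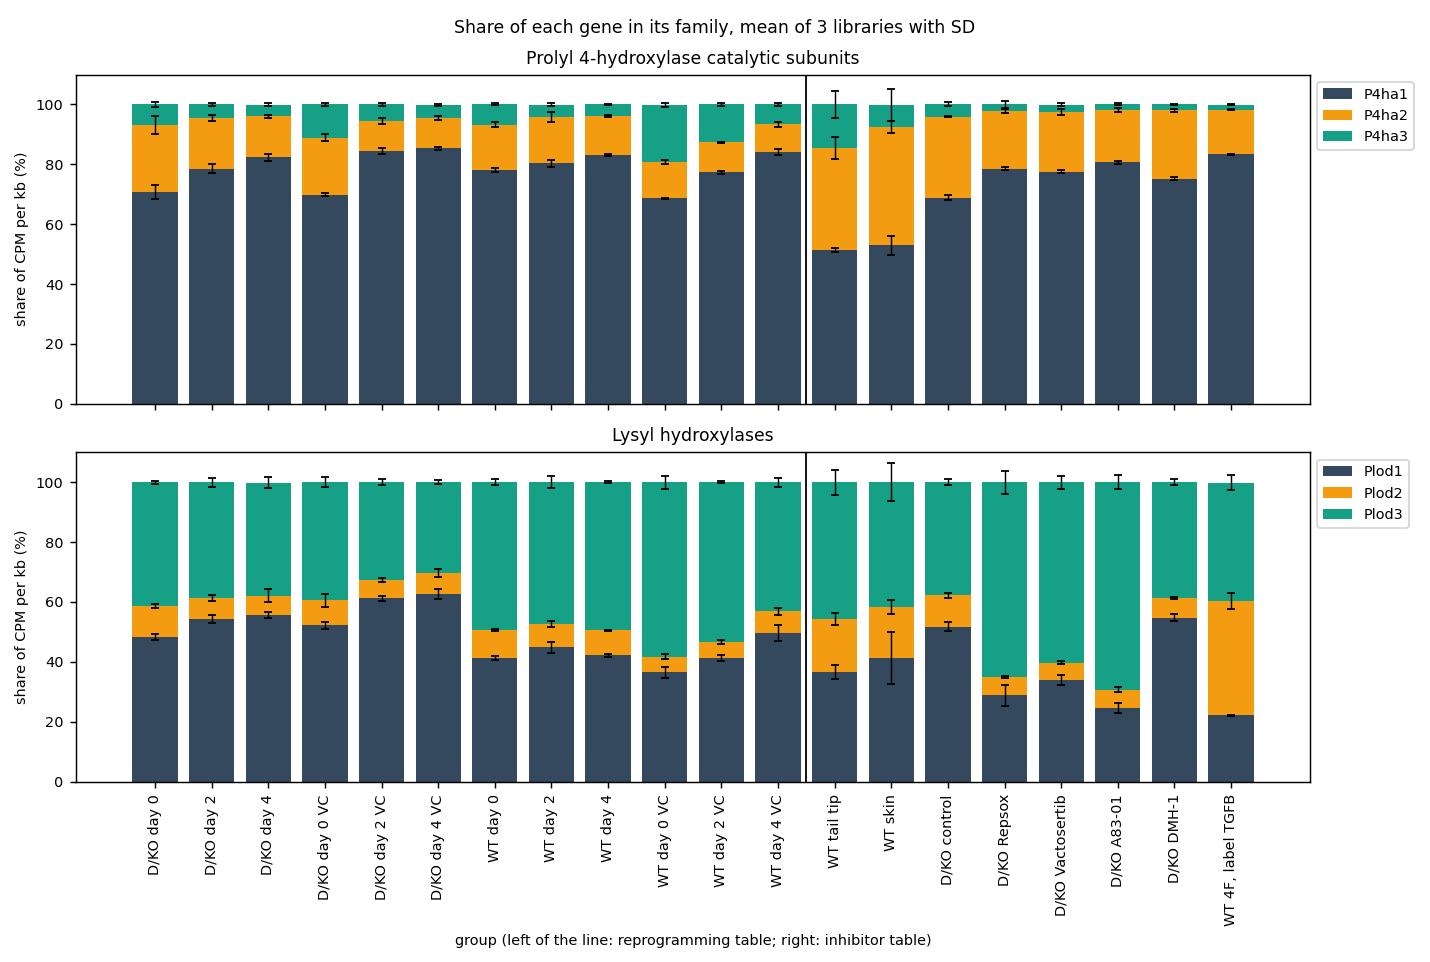
Shares of the transcripts within the prolyl 4-hydroxylase alpha subunits (top) and the lysyl hydroxylases (bottom) (percent of summed CPM per kb, mean of 3 libraries, with an error bar of 1 SD of a gene's own share at the top of its segment), in the 20 groups. Within the first table P4ha1 takes 70.7% of the alpha subunits in D/KO cells at day 0 and 85.3% at day 4 plus VC, and within the second Plod1 drops from 51.8% in control D/KO cells to 24.7% with A83-01.

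TGFb is the classical inducer of collagen synthesis in fibroblasts, and 4 receptor inhibitors were compared with the same 3 control D/KO libraries, so their values are given side by side and not counted as independent. Both inhibitors at 0.1 µM and A83-01 at 1 µM lowered most of the group. With Repsox 9 of 10 genes fell (25.2% of 15164 genes called, 11.8% downward), with Vactosertib 8 (22.1%, 10.3% downward), with A83-01 9 (32.6%, 16.2% downward) and with DMH-1 4 (9.75%, 3.79% downward). None rose. The member medians were -0.99, -0.84, -1.07 and -0.24. The genes called with DMH-1 went from 1479 to 928, 858 and 978 without control library 1, 2 and 3 in turn, while 4, 3 and 3 members were called.

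Plod1 gave the largest separation between compounds. The control libraries held 948, 1030 and 1090 CPM. With Repsox it was at 270, 207 and 271 CPM (-2.04 ± 0.102, edgeR adjusted p = 3.8e-10), and with Vactosertib at 341, 358 and 330 CPM (-1.57 ± 0.1, edgeR adjusted p = 9.8e-09). With A83-01 it was at 183, 202 and 187 CPM, 0.186 of the control level (-2.42 ± 0.103, edgeR adjusted p = 2.84e-11). The DMH-1 libraries, at 959, 1040 and 962 CPM, lay within the control range (-0.05, 95% interval -0.26 to 0.16). During reprogramming of D/KO cells the same gene had fallen less than any other called member at day 4.

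Plod2 fell with all 4 compounds, from 165, 168 and 156 CPM in control to 42.8, 38.5 and 44.2 CPM with Repsox (-1.97 ± 0.103), 45.1, 49.1 and 42.9 CPM with Vactosertib (-1.83 ± 0.103), 31.2, 39.8 and 40.7 CPM with A83-01 (-2.13 ± 0.104) and 96.7, 94.7 and 90.9 CPM with DMH-1 (-0.79 ± 0.0995, edgeR adjusted p = 5.53e-05). Every treated library was below every control library. Plod3 had the smallest changes of the family with Repsox (-0.41), A83-01 (-0.48) and Vactosertib (-0.28), and was not called with DMH-1 (-0.10). The Vactosertib call of Plod3 was lost without any 1 control library or without library 1 or 2 of the treated group (edgeR adjusted p from 0.0636 to 0.112). As shares of the family, Plod1 went from 51.8% ± 1.56 in control cells to 28.8% ± 3.51 with Repsox and 24.7% ± 1.71 with A83-01, and Plod3 from 37.8% ± 1.03 to 65.1% ± 3.77 and 69.3% ± 2.28.

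Of the alpha subunits, P4ha2 was at 560, 539 and 551 CPM in control, 180, 202 and 171 CPM with Repsox, 222, 202 and 226 CPM with Vactosertib, 171, 148 and 162 CPM with A83-01 and 370, 354 and 372 CPM with DMH-1. All 4 falls passed the test, from -1.78 ± 0.0996 with A83-01 to -0.59 ± 0.0969 with DMH-1 (edgeR adjusted p = 7.71e-10 and 0.000818). P4ha1 went from 913 to 949 CPM to 486, 522 and 471 CPM with Repsox (-0.91), 549 to 565 CPM with Vactosertib (-0.72) and 473 to 497 CPM with A83-01 (-0.93). With DMH-1 it was at 784 to 813 CPM, below each control library, and did not pass the test (-0.21, edgeR adjusted p = 0.0674). P4ha3, from 34.5, 45.3 and 47.6 CPM in control, fell with each compound, with log2 changes of -2.32 for A83-01, -2.04 for Repsox, -1.62 for Vactosertib and -1.39 for DMH-1. Its level in Repsox library 2, which stands apart, was 5.06 CPM against 14.5 and 11.5 CPM in the other Repsox libraries, and without that library the change was -1.71 (edgeR adjusted p = 2.13e-05).

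P4hb fell by 0.89 with Repsox, 0.80 with Vactosertib and 1.09 with A83-01 on the log2 scale, and P3h1 by 1.07, 0.89 and 1.04. DMH-1 left P4hb at -0.27 (edgeR adjusted p = 0.0523), while P3h1 passed at -0.29 (0.0238), a call lost without library 2 or 3 of the control or of the DMH-1 group (edgeR adjusted p from 0.0726 to 0.107). Serpinh1, the most abundant of the 10 per kb in control cells, was among those that changed least. It was at 2330, 2250 and 2360 CPM in control and at 1620, 1630 and 1660 CPM with A83-01 (-0.50 ± 0.0763, edgeR adjusted p = 7.02e-05). Repsox gave 1930, 1940 and 1880 CPM (-0.27 ± 0.0761, edgeR adjusted p = 0.0138), a call lost without control library 3 (0.0524). It did not pass with Vactosertib (-0.10) or DMH-1 (-0.07). P3h2 stayed between 0.717 and 4.45 CPM in control and treated libraries and passed no test. Without Repsox library 2 the Repsox count was 9 and the member median -0.99, with Plod1 at -1.92, Plod2 at -1.91, P4ha1 and P4hb at -0.96, P4ha2 at -1.65 (-1.58 with it), P3h1 at -1.02, Plod3 at -0.44, Serpinh1 at -0.29 and P3h2 at 0.66 (0.21 with it, not called in either). Without Vactosertib library 2 the count went from 8 to 7 and the median was -0.85, with Plod1 at -1.59, Plod2 at -1.88, P4ha1 at -0.72, P4ha2 at -1.28 (-1.34 with it), P4ha3 at -1.77, P4hb at -0.77, P3h1 at -0.93, Plod3 at -0.25, Serpinh1 at -0.08 and P3h2 at -0.37 (-0.21 with it, not called in either). In a fit of all 24 libraries the DMH-1 count was 2 in place of 4, P4ha3 and P3h1 being lost (edgeR adjusted p = 0.0877 and 0.133).

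**Figure D5:**
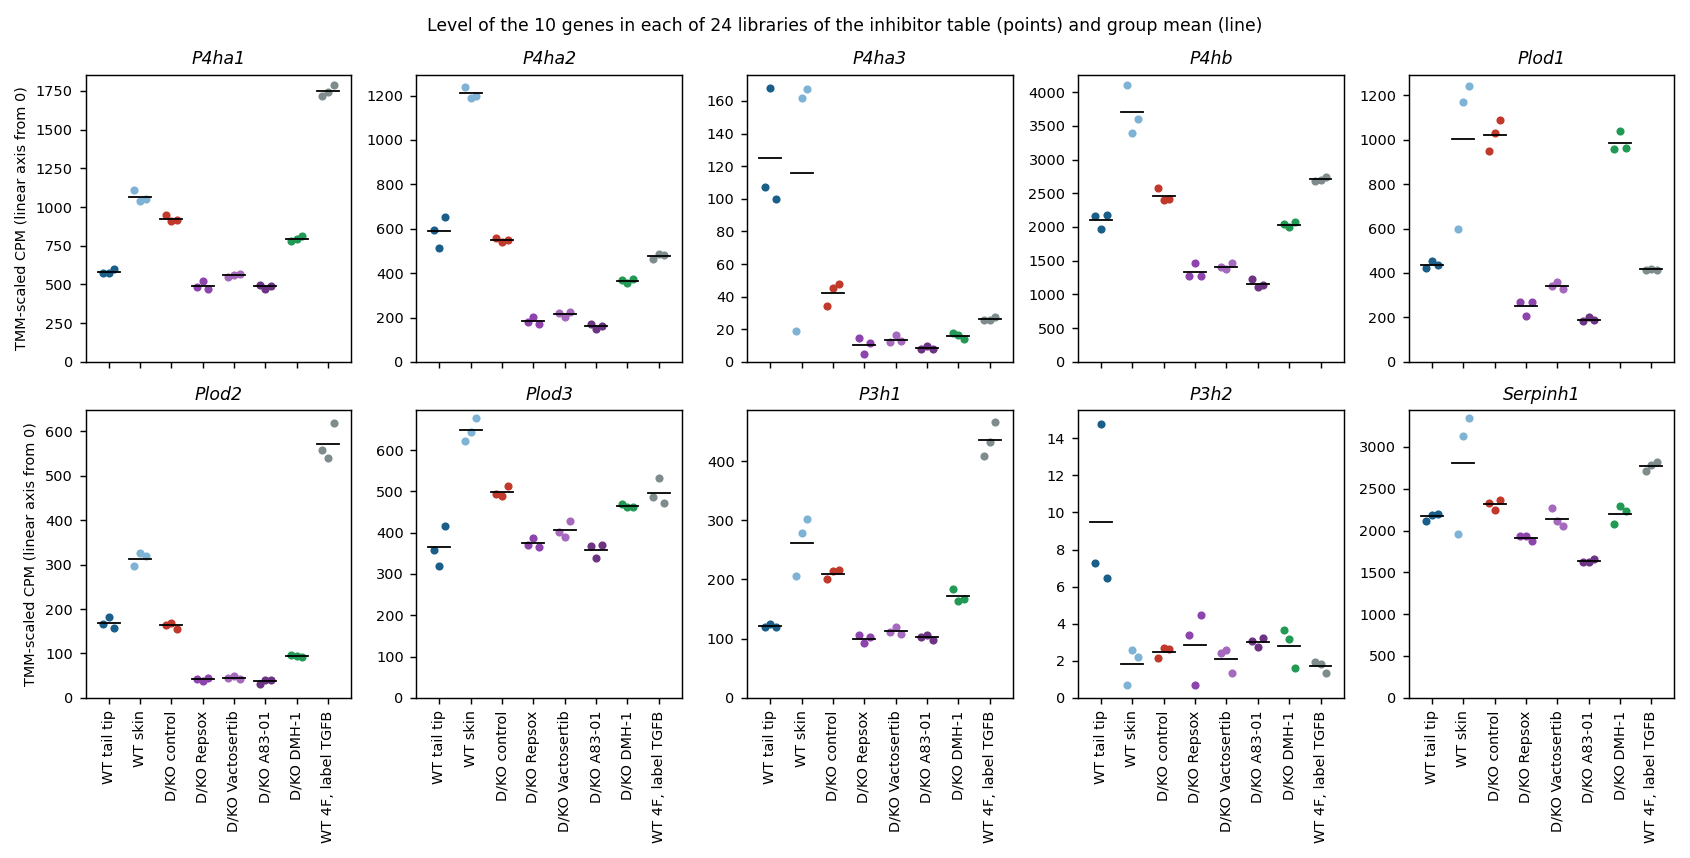
Levels of the 10 genes in the 24 libraries of the inhibitor table (TMM-scaled CPM, linear axis from 0), with 1 point per library and a line at the mean of 3. Plod1 stands at 948 to 1090 CPM in control D/KO cells, at 183 to 358 CPM with Repsox, Vactosertib or A83-01 and at 959 to 1040 CPM with DMH-1.

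Compounds were compared with each other at matched dose and time, 2 pairs in all. Repsox and Vactosertib at 0.1 µM could not be separated. By edgeR's test 0 of 15164 genes differed at an adjusted p under 0.05, 452 at an unadjusted p under 0.05, and DESeq2 called 2. The largest member difference was that of Plod1 (-0.47, 95% interval -0.68 to -0.26, edgeR adjusted p = 0.57), and it was -0.36 without Repsox library 2 and -0.45 without Vactosertib library 2. The other intervals ran within -0.45 to 0.09 for the 7 genes other than P4ha3 and P3h2. At 1 µM, A83-01 was below DMH-1 for 9 genes (25.4% of genes called, 13.4% downward). The difference was -2.38 ± 0.103 for Plod1 (edgeR adjusted p = 9e-11), -1.34 ± 0.101 for Plod2 and -1.20 ± 0.0981 for P4ha2. P4ha3 (-0.93) was lost without library 1 or 2 of DMH-1 or library 1 or 3 of A83-01 (edgeR adjusted p from 0.0573 to 0.0846). P3h2 did not differ beyond its error (0.07, 95% interval -0.91 to 1.05).

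Of 8 TGFb response genes 5 fell with Repsox, 5 with Vactosertib, 6 with A83-01 and 6 with DMH-1, and none rose. Of all genes tested, 11.8%, 10.3%, 16.2% and 3.79% were called downward in these comparisons, in the same order. Tgfbi, a matrix protein named for its induction by TGFb, changed by -2.73 ± 0.123 with Repsox and -2.92 ± 0.124 with A83-01. Fibroblast markers summed to 63900 to 67900 CPM in control cells, 33800 to 39300 with Repsox, 40100 to 42400 with Vactosertib, 35200 to 37500 with A83-01 and 49500 to 64500 with DMH-1. Markers of other cell types moved as well. The 3 Schwann cell markers summed to 6.61 to 9.54 CPM in control, 17.2 to 18.7 with Repsox, 13.7 to 17.6 with Vactosertib, 10.9 to 13.8 with DMH-1 and 30.8 to 38.9 with A83-01, and all 3 rose with Repsox and with A83-01. The 4 endothelial markers summed to 240 to 288 CPM in control and 106 to 143 CPM with A83-01, where 3 fell and 1 rose, and to 146 to 294, 211 to 276 and 284 to 359 CPM with Repsox, Vactosertib and DMH-1. The 7 keratinocyte markers summed to 3.96 to 6.2 CPM in control, 5.49 to 14 with Repsox, 6.08 to 10.8 with Vactosertib, 5.43 to 5.91 with DMH-1 and 12.4 to 13.8 with A83-01, with Krt14 and Krt1 at 0 in all these libraries. The 5 chondrocyte markers summed to 61.4 to 73 CPM in control, 64 to 73 with Repsox, 54.8 to 68.7 with Vactosertib, 26.7 to 33.9 with DMH-1 and 77.5 to 83.7 with A83-01. The part of the markers in the results was not tested.

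Untreated D/KO and WT tail tip cells of the second table, which Ercc1 levels did not separate, differed in 7 of 10 genes (40.2% called, 21.3% upward and 18.9% downward). Plod1 was higher in D/KO cells, at 948 to 1090 CPM against 421, 454 and 435 CPM (1.24 ± 0.0996, edgeR adjusted p = 3.37e-08), as were P3h1 (0.81), P4ha1 (0.68) and Plod3 (0.46). P4hb (0.25) passed but was lost without library 2 of WT tail tip or library 1 or 3 of the control (edgeR adjusted p = 0.0907, 0.0912 and 0.0561). P4ha3 was lower in D/KO cells, at 34.5 to 47.6 CPM against 107, 168 and 100 CPM (-1.55 ± 0.276, edgeR adjusted p = 0.000256). P3h2 was lower too, at 2.13, 2.68 and 2.66 CPM against 7.27, 14.8 and 6.47 CPM (-1.92 ± 0.467, edgeR adjusted p = 0.00336), the largest difference in size among the 10 genes. P4ha2 and Plod2 stood at -0.08 and -0.03 and did not pass. Endothelial markers summed to 240 to 288 CPM in D/KO and 57.7 to 75.8 CPM in WT tail tip libraries, and Schwann cell markers to 6.61 to 9.54 and 2.27 to 2.61 CPM. Skeletal muscle markers summed to 10.2 to 12.6 and 2.09 to 3.76 CPM. Myod1, Myf5 and Pax7 were at 0 in both groups, and Myog was at 0 in D/KO libraries. Keratinocyte markers were lower in sum in D/KO libraries, at 3.96 to 6.2 against 14.9 to 18 CPM. Krt14 and Krt1 were at 0 in both groups and Krt5 was at 0 in the WT libraries. Chondrocyte markers were lower too, at 61.4 to 73 against 138 to 144 CPM. The part of the markers was not tested. These mice differ in age and, between the tables, in sex and stock, and values are not compared across the tables.

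Fibroblasts from skin and from tail tip of WT mice were compared in 1 further contrast, in a fit of all 24 libraries. In all, 9 of the 10 genes were called, 8 higher in skin and P3h2 lower (34.2% of 15652 genes called, 18.1% upward and 16.1% downward). P4ha1 was at 1110, 1040 and 1050 CPM in skin and 576, 573 and 598 CPM in tail tip (0.87 ± 0.0749, edgeR adjusted p = 1.22e-08). P4ha2 was at 1240, 1190 and 1200 CPM against 595, 514 and 655 CPM (1.04 ± 0.0951, edgeR adjusted p = 2.95e-08). Skin library 1, which stands apart, had 596 CPM of Plod1 beside 1170 and 1240 CPM in the other skin libraries and 18.9 CPM of P4ha3 beside 162 and 167 CPM. Without it the log2 difference went from 1.20 to 1.47 for Plod1, from 0.37 to 0.58 for Serpinh1 and from -0.11 to 0.39 for P4ha3, which did not pass in either fit. It also went from 0.87 to 0.84 for P4ha1, 1.04 to 1.02 for P4ha2, 0.82 to 0.74 for P4hb, 0.90 to 0.94 for Plod2, 0.83 to 0.86 for Plod3, 1.12 to 1.26 for P3h1 and -2.39 to -1.98 for P3h2. The count stayed at 9. The Serpinh1 call was lost without any 1 tail tip library or without skin library 2 or 3 (edgeR adjusted p from 0.0647 to 0.209). Skeletal muscle markers (5 genes) summed to 57.4 to 84.1 CPM in skin and 2.09 to 3.76 CPM in tail tip libraries. Myf5 and Pax7 were at 0 in both groups, and Myod1 was at 0 in tail tip. Endothelial markers summed to 116 to 209 and 57.7 to 75.8 CPM, and Schwann cell markers to 10.1 to 11.3 and 2.27 to 2.61 CPM. Keratinocyte markers summed to 3.5 to 4.42 CPM in skin and 14.9 to 18 CPM in tail tip. Krt14 was at 0 in both groups, and Krt5 and Krt1 were at 0 in tail tip. Chondrocyte markers summed to 64.4 to 86.5 and 138 to 144 CPM, and fibroblast markers to 62700 to 122000 and 63400 to 64200 CPM. The part of the markers was not tested.

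The 3 libraries of WT reprogrammable cells labelled TGFB have no matched control in their table and are given as levels. They held the highest P4ha1 of the table, at 1720, 1740 and 1790 CPM, and the highest Plod2, at 559, 540 and 618 CPM, with no other library above 1110 CPM of P4ha1 or 326 CPM of Plod2. Plod2 made up 38.2% ± 2.59 of the lysyl hydroxylase transcripts there. P3h1 was at 409, 432 and 467 CPM, also above every other library. Plod1 was at 414 to 420 CPM and P4ha3 at 25.6 to 27.6 CPM, which are not high in the table. Keratinocyte markers summed to 132 to 137 CPM there and 14.9 to 18 CPM in WT tail tip libraries. Endothelial markers summed to 0.968 to 1.83 and 57.7 to 75.8 CPM, and fibroblast markers to 64000 to 68900 and 63400 to 64200 CPM. The part of the markers was not tested.

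The substrates and partners of the enzymes were followed in lists of genes, counted by calls and read beside the shares of all genes called that are given above for the same comparisons. Of 12 collagen chain genes, 10 fell and 1 rose at day 4 in D/KO cells (median log2 -1.11) and 5 fell and 1 rose in WT cells (-0.28). Col1a1, whose locus also carries the cassette, changed by -2.11 ± 0.164 in D/KO and by -0.76 ± 0.158 in WT cells, and Col5a2 by -1.79 and -1.02. With VC at day 0, 9 chains rose and 1 fell in WT cells (median 0.90), while 4 rose, 3 fell and 5 were not called in D/KO cells (0.20). Col1a1 then rose by 2.29 ± 0.165 in WT and 1.51 ± 0.161 in D/KO cells. Repsox lowered 9 of 12 and raised 1 (-0.99), Vactosertib the same numbers (-0.78), A83-01 lowered 10 and raised 1 (-1.06) and DMH-1 lowered 4 (-0.38).

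Of 16 other ER genes for collagen folding and export, 12 fell in D/KO cells at day 4 (median -0.70) and 6 in WT cells (-0.26). Creb3l1, a transcription factor of the collagen secretory pathway, fell by 1.06 on the log2 scale in D/KO cells, and Sec23a and Sec24d, coat proteins of the vesicles that leave the ER, by 0.88 and 0.78. Crtap, the partner of P3h1, rose with VC at day 0 by 0.71 ± 0.101 in WT and 0.49 ± 0.1 in D/KO cells, among 10 up and 1 down in WT and 9 up in D/KO cells. The inhibitors gave 8 falls of 15 tested with Repsox, 8 with Vactosertib, 9 with A83-01 and 2 with DMH-1. Fkbp10, a prolyl isomerase that acts with Plod2, fell by 0.88 with Repsox, 1.12 with A83-01 and 0.40 with DMH-1. Of 5 procollagen processing genes, 3 fell in D/KO cells at day 4, where Adamts14, a procollagen N-proteinase, changed by -2.6 ± 0.207. In WT cells 1 fell, Adamts14 (-1.13), and 1 rose, Adamts2 (0.62). Among 12 general ER folding genes 10 fell in D/KO (-0.59) and 4 fell and 1 rose in WT cells.

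Across the 12 group means of the first table, the pattern of each member was set beside all genes tested, as a description. The gene most like P4ha1 was P4ha2 (Pearson's r = 0.979), and the reverse held. P3h1 was among the 3 genes most like Serpinh1 (0.978), after Man1b1 (0.982), a mannosidase of the ER. Ckap4 was the gene most like P4hb (0.981) and was also among the 3 most like P3h1 (0.981). The gene most like P3h2 was Gm4524 (0.958), whose reads cannot be told apart from it. The group means share days, lines and libraries. Over the 45 member pairs r ran from -0.694 to 0.979 with a median of 0.714, and 36 were above 0.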

How the data were processed

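RNA sequencing counts were deposited by the authors as 2 tables of raw, unnormalized read counts per gene, with the gene length, for 36 and 24 libraries. Per the labels' processing notes the authors used FastQC, Trim Galore, HISAT2 and featureCounts (Subread) on build GRCm39, with versions and the strand setting of the counting not given in the sources used here. Counting of reads shared by overlapping genes can therefore change a member's level. Per-gene lengths came with the tables, and 98.7% of identifiers are in GENCODE M39.

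Libraries were grouped by the labels, 3 per group. Each table was scaled on its own by TMM, filtered by filterByExpr (minimum count 10, total 15) and fitted with 1 coefficient per group in edgeR 4.0.16 under R 4.3.3 (limma 3.58.1). The skin comparison came from a fit of all 24 libraries, and the other comparisons of that table from a fit of 18. Contrasts were tested by the two-sided quasi-likelihood F-test, with Benjamini-Hochberg adjustment over all genes of a contrast and calls at an adjusted p under 0.05. The SE was taken as the size of the log2 fold change over the root of F, and intervals are 95%. Levels are TMM-scaled CPM, divided by length in kb where genes were compared. Likeness of pattern used log2 CPM with a prior count of 2. The fitting was tested on simulated data. Alternatives were DESeq2 1.42.0, its size factors in edgeR, no or a stricter filter, only the groups compared, a minimum log2 change of 1, another baseline for VC, all 24 libraries, and each library left out in turn. A rule named all 10 members, and from each list at most 4 genes per comparison, those with the smallest adjusted p. Members and lists were chosen with earlier results of these data known. Ercc1 was looked at in every library. Of the marker lists, the chondrocyte, immune, melanocyte and Schwann cell genes had at most 3 genes tested at D/KO day 4, of which 1 chondrocyte and 1 Schwann cell gene rose and 2 chondrocyte genes fell.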

Additional observations from a re-analysis of the deposited data

Results flagged for a closer look

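The results below are differences between 2 changes, each tested as an interaction in edgeR's fit of 36 libraries, and each passed an adjusted p under 0.05. They are given as values on the log2 scale.

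Between the lines (D/KO minus WT), the change to day 2 differed for P4ha2 (-0.90) and P4hb (-0.48). The change to day 4 differed for P4ha1 (-0.56), P4ha2 (-1.18), P4ha3 (-0.69), P4hb (-0.59), Plod2 (-0.87), Plod3 (-0.45), P3h1 (-0.54), P3h2 (-1.67) and Serpinh1 (-0.57). With VC, the change to day 2 differed for P4ha2 (-0.76) and P4ha3 (-0.54), and the change to day 4 for P4ha1 (-0.41), P4ha2 (-0.87), Plod2 (-0.77), P3h1 (-0.52) and Serpinh1 (-0.59). The effect of VC at day 0 differed for P4ha3 (-0.82), P4hb (-0.42) and Plod3 (-0.52).

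Between culture with and without VC, the change to day 4 differed in D/KO cells for P4ha3 (-0.86), P3h1 (-0.56) and Serpinh1 (-0.94). In WT cells it differed for P4ha1 (-0.39), P4ha2 (-0.79), P4ha3 (-1.36), P4hb (-0.83), Plod3 (-0.71), P3h1 (-0.58) and Serpinh1 (-0.92). The calls that rest on a single library are named with the comparisons above.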

How the results depend on the processing

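No paired analysis was possible because the labels give running library numbers and no replicate number, animal or culture shared between groups. In the order of these numbers the third library held the highest P4ha2 and Plod2 of its group in all 6 D/KO groups and in 1 of 6 WT groups, and the highest P4ha1, P4ha3, P4hb, P3h1 and P3h2 in 5 of the D/KO groups, and what it shares across groups is not given. Counts of members called stayed within 1.5 times the reported ones in 177 counts under other settings, moved further in 38, and stayed so in 222 with a library left out, moving further in 24. Requiring also an absolute log2 change of at least 1 gave the most moves: 3 of 8 genes for D/KO day 2 and 5 of 9 with VC, 0 of 1 for WT day 2, 2 of 10 for WT day 4 and 3 of 8 for WT day 2 plus VC, 0 of 9 and 1 of 8 for D/KO day 4 against day 2 without and with VC and 1 of 8 and 1 of 6 for WT, 1 of 5, 1 of 2 and 0 of 4 for VC in D/KO cells at days 0, 2 and 4 and 2 of 7 and 1 of 4 in WT cells at days 0 and 2, 0 of 2 and 2 of 9 for the line difference at days 2 and 4, 0 of 2 and 0 of 5 for the same days in VC and 0 of 3 for the effect of VC at day 0, 0 of 3 and 1 of 7 for the effect of VC on the change to day 4 in D/KO and WT cells, 3 of 9 for D/KO against WT at day 0, 5 of 9 for Repsox, 4 of 8 for Vactosertib, 1 of 4 for DMH-1, 3 of 9 for A83-01 against DMH-1, 3 of 7 for control D/KO against WT and 4 of 9 for skin. DESeq2 called 5 members, not 2, in the line difference at day 2. Without a filter the effect of VC on the change to day 4 in D/KO cells went from 3 to 5, the line difference at day 2 plus VC from 2 to 1 and VC in D/KO cells at day 2 from 2 to 1. With only the groups compared, VC at day 4 went from 3 to 5 in WT and from 4 to 1 in D/KO cells, WT day 2 from 1 to 2 and the line difference in VC at day 0 from 3 to 1. All 24 libraries gave 2 of 4 for DMH-1, and day 0 without VC as the baseline gave 3 of 8 for WT day 2 plus VC.

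That baseline turned the sign of 6 values: P3h2 to -0.61 in D/KO cells on both days in VC, to -0.55 in WT cells at day 2 and to -0.30 at day 4, P4ha3 to 0.05 and Serpinh1 to 0.01 at WT day 2 plus VC. By its construction it takes the effect of VC at day 0 into the change.

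With 1 library left out the counts ran from 1 to 3 for the line difference at day 2 (reported 2), 1 to 2 for it at day 2 plus VC (2), 1 to 4 for it in VC at day 0 (3), 3 to 6 for the effect of VC on the change to day 4 in D/KO cells (3), 1 to 2 for VC in D/KO cells at day 2 (2) and 2 to 4 at day 4 (4). Over all genes, using only the groups compared moved the calls from 3880 to 6400 for WT day 4, 4140 to 2523 for VC in D/KO cells at day 0, 4252 to 2813 and 2427 to 3754 for the effect of VC on the change to day 4 in D/KO and WT cells, 3820 to 2256 for Repsox and 5348 to 2591 for skin, and DESeq2 called 2 genes, not 0, between Repsox and Vactosertib. Causes were not tested. With 3 libraries a group, differences within the intervals given were not detectable, and the levels of P3h2 rest on few counts.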

Other observations

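Of 15 other ascorbate-dependent dioxygenases tested (HIF prolyl and asparaginyl hydroxylases, Tet and histone or nucleic acid demethylases among them), 3 rose and 4 fell in D/KO cells at day 4 (median log2 -0.25) and 2 rose and 2 fell in WT cells (0.04). The 7 and 4 calls of 15 stand beside 37% and 24.5% of all genes called, so they are close to the background. Egln3, a HIF prolyl hydroxylase, rose by 1.60 ± 0.161 in D/KO cells, while Egln1, the main one in most cells, fell by 0.99 on the log2 scale. With VC at day 0, P4htm, a prolyl hydroxylase of the ER membrane, fell by 1.86 in WT and 1.17 in D/KO cells, among 2 falls and 1 rise in WT and 3 falls and 1 rise in D/KO cells, with 29.4% and 26.1% of all genes called. Repsox gave 1 rise and 5 falls of 14 tested, Vactosertib 4 falls, A83-01 1 rise and 5 falls and DMH-1 2 falls, beside 25.2%, 22.1%, 32.6% and 9.75% of all genes called. Of 7 genes for uptake and recycling of ascorbate tested, 3 rose and 2 fell in D/KO cells at day 4 (37% of all genes called), where the glucose and dehydroascorbate transporters went apart, Slc2a3 rising by 2.06 ± 0.196 and Slc2a1 falling by 1.36.

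Of 12 hypoxia response genes, 8 fell and 1 rose in D/KO cells at day 4 (median -0.80) and 4 fell in WT cells (-0.34), where 37% and 24.5% of all genes were called. With VC at day 0, 5 fell in WT cells, among them Vegfa (-1.78 ± 0.144) and Bnip3 (-0.92 ± 0.195), and 4 fell and 1 rose in D/KO cells, beside 29.4% and 26.1% of all genes called. A83-01 lowered 11 and raised 1 (32.6% of all genes called), Repsox lowered 9 and raised 1 (25.2%), and DMH-1 lowered 5 (9.75%). Skin was higher than tail tip in 10 of 12 (median 1.45), where 18.1% of all genes were called upward. Of 10 heat shock genes, 4 fell and 2 rose in D/KO cells at day 4 (37% of all genes called) and 3 rose with VC at day 0 in WT cells (29.4%), the latter close to the background. A83-01 raised 3 and lowered 3 (32.6%), Repsox raised 3 and lowered 2 (25.2%), and DMH-1 changed none that passed the test (9.75%).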
